A study of Homo sapiens with 6 samples.

Results

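Cytosolic ribosomal proteins are the protein building blocks of the ribosome in the cytoplasm. Their genes were taken from the count tables by symbol, as the rows named RPL or RPS with a number and at most a closing A, X, L or L1, together with RPLP0, RPLP1, RPLP2 and RPSA. This gave 82 genes of 32029, with 50 of the large subunit (RPL symbols) and 32 of the small subunit (RPS symbols), and rows of pseudogenes were left out. The rule uses names and no measured value. All 82 had enough reads to be tested.

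Each ribosome pairs a small subunit, which reads the mRNA, with a large subunit, which joins the amino acids and passes the growing chain out through a tunnel. Nearly all of these proteins are needed in a single copy per ribosome, so their genes are usually expressed together and at a high level in growing cells, tumor cells included. Most of their mRNAs begin with a C followed by a run of pyrimidines, the terminal oligopyrimidine (TOP) motif, through which the kinase mTOR and the RNA-binding protein LARP1 set how much they are translated. Paralogs such as RPL26L1 can stand in for their partner in the ribosome.

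The cells were SW480, an established human colorectal adenocarcinoma line, grown as bulk cultures. A control siRNA, labelled siNC, was transfected into 3 cultures and an siRNA against the transcription factor ZEB1, labelled siZEB1, into 3 others, and RNA was taken 48 h later for RNA-seq. All 6 cultures thus carried an siRNA, and no untransfected culture was analysed here. The design was made to ask what the loss of ZEB1 changes in these cells, here for the ribosomal protein transcripts. In bulk RNA, fewer cells expressing a gene and less of its RNA per cell cannot be told apart.

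The libraries held between 19040636 and 22357633 reads assigned to genes. ZEB1 itself fell from 54.2 ± 6.24 to 7.51 ± 0.843 CPM (read counts scaled to the library's size, mean ± SD, n = 3 each). The log2 of the ratio of siZEB1 to siNC, called log2FC from here on, was -2.85 ± 0.11 (SE) with an adjusted p of 4.85e-12 in edgeR's quasi-likelihood test, and every siZEB1 library lay below every siNC library. The epithelial keratins KRT8 and KRT18 were abundant in both groups, at 3455 and 1418 CPM with siNC, while the colonic keratin KRT20 was near 0, at 0.482 CPM. Of 8 epithelial and colorectal markers, 3 were called as higher with siZEB1, with EPCAM at a log2FC of 3.05 and VIL1 at 2.34, and 2 as lower (CDX2 and LGR5). These markers thus moved with the groups, and their part in the ribosomal protein values was not tested. Of 6 markers of blood, endothelium and fibroblasts, 4 were among the gene rows, only PECAM1 and COL1A1 passed the filter on low counts, and neither was called. The share of reads from mitochondrial genes was 3.75% to 4.03% with siNC and 3.60% to 3.66% with siZEB1, and its part was not tested either.

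Replicate 3 of each group stood apart from the others of its group. Divided by its degrees of freedom, the chi-square distance between siNC replicates 1 and 2 was 3.36, against 8.58 and 6.47 for their distances to replicate 3. In the siZEB1 group the distance between replicates 1 and 2 was 2.18, against 4.51 and 6.32 to replicate 3. Over 9030 genes, the deviation of siNC replicate 3 from its group mean correlated with those of siZEB1 replicates 1 and 2 (0.32 and 0.56), and that of siZEB1 replicate 3 with those of siNC replicates 1 and 2 (0.55 and 0.32). Libraries thus resembled each other across the groups, the labels give no batch, and the part of a batch in this was not tested. The ribosomal protein genes took part in this spread, so counts are given below with all 6 libraries and without the replicate 3 of each group, an alternative chosen after the data had been seen.

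The TOP motif was looked for at the transcription starts of RefSeq (GRCh38.p14), where 66 of the 82 genes had at least 1 listed start, 82 starts in all. A start was taken to carry the motif where its first base was C and at least 4 further bases in an unbroken run were C or T, read on the gene's own strand. By this rule 47 of the 66 genes (71.2%) had a TOP start, against 5.14% of the 27305 genes in the table. The starts of the 5 genes called as lower, of 2 called as higher (RPLP1 and RPL13A) and of the pair RPL26L1 and RPL26 are shown to mark which of them carry it. Each run holds 15 bases before the start and 15 from the start on, and capitals mark the first transcribed base, where it is C, with the pyrimidines that follow it.
RPS7, chr2:3575245-3575274, plus strand: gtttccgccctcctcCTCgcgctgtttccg
RPL4, chr15:66504841-66504870, minus strand: tacagcgggagtggtaagcacttccttttc
RPL6, first start, chr12:112409271-112409300, minus strand: ggggagacggcgcgtgcactgtgttcctgg
RPL6, second start, chr12:112411428-112411457, minus strand: tatttgtatcctcagtgaatcagaaccaga
RPL39, chrX:119791616-119791645, minus strand: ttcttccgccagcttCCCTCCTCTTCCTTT
RPS27, chr1:153990747-153990776, plus strand: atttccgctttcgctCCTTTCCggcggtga
RPLP1, chr15:69452803-69452832, plus strand: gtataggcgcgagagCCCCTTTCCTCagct
RPL13A, chr19:49487593-49487622, plus strand: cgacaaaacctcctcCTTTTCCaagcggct
RPL26, chr17:8383179-8383208, minus strand: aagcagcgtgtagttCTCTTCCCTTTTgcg
RPL26L1, first start, chr5:172958714-172958743, plus strand: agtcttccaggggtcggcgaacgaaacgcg
RPL26L1, second start, chr5:172958865-172958894, plus strand: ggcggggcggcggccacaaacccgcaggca
The run of RPL39 filled the window with at least 15 pyrimidines and was 19 long. RPS7 had only 3 pyrimidines at its listed start, and RPL4, RPL6 at both of its listed starts and RPL26L1 had none, so these genes did not meet the rule at these starts.

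With all 6 libraries, most of the ribosomal protein transcripts differed little between the groups. The quasi-likelihood test of edgeR, at an adjusted p under 0.05, called 8 of the 82 as higher and 5 as lower with siZEB1, or 15.9%, where 40.2% of the 14996 genes tested were called (19% higher and 21.2% lower). An absolute log2FC under 0.2 was found for 69 of the 82 (84.1%), against 42.1% of all genes tested. This comparison was not matched for read number, and only 9 of the 82 had fewer than 1000 reads in every library. The level of these genes also varied between replicates, as given below, so a low called share need not mean a small change. The median log2FC of the 82 was 0.072, that of all genes tested was -0.0055, and 64 of the 82 lay above 0. By the threshold in the study's results, a fold change above 1.5 with an unadjusted p under 0.05, 1 gene was higher (RPL26L1) and 1 lower (RPS7), where 16.6% of all genes passed. The study's methods give a p under 0.001 instead, and of the 82 only RPL26L1 and RPS7 passed that as well. The 6 libraries separated completely by group for 11 of the 82 (13.4%), against 49.5% of all genes tested. At this depth and replication, 26% of genes simulated with a 1.2-fold change were recovered and 54% with a 1.5-fold change, and smaller changes were not simulated.

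**Figure D1:**
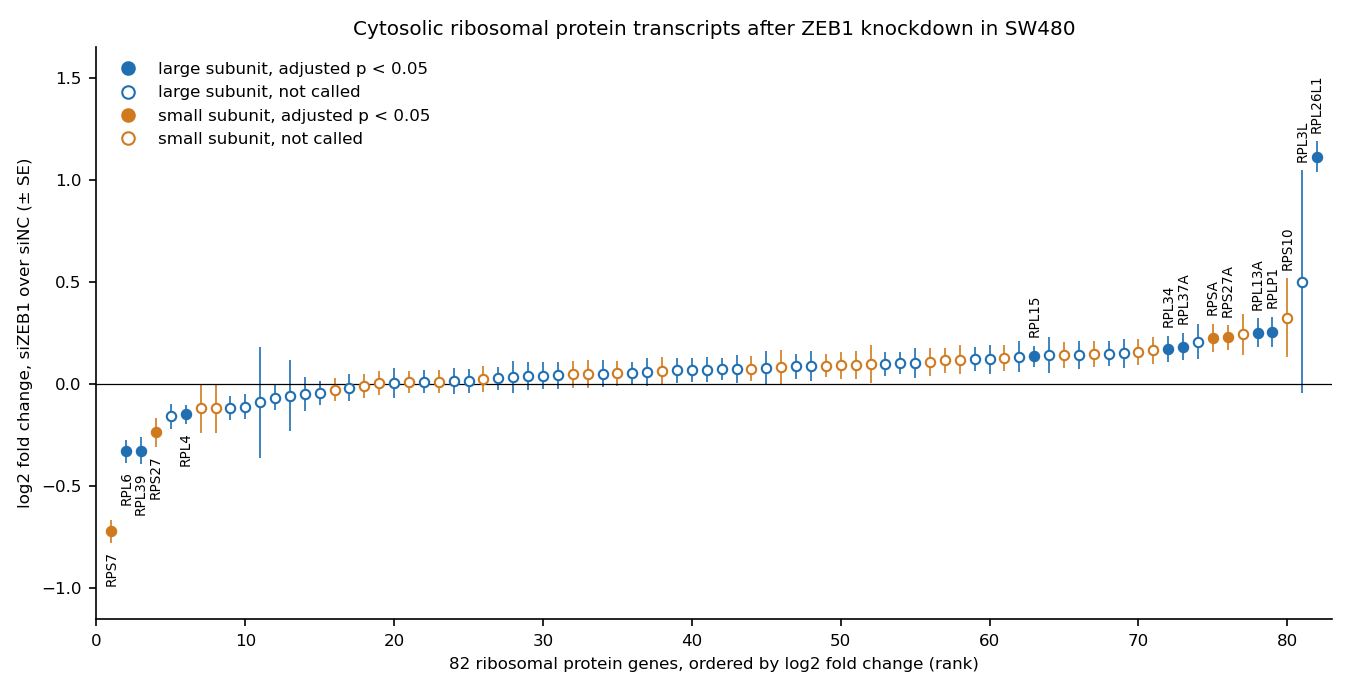
Each point is the log2FC (siZEB1 over siNC, with its standard error) of 1 of the 82 genes, in order of size, with filled points for an adjusted p under 0.05. RPS7 at -0.72 and RPL26L1 at 1.11 lie apart from the rest, and 69 genes lie within 0.2 of 0.

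The count of higher genes depended strongly on single libraries. It was 2, 5 and 26 without siNC replicate 1, 2 or 3, and 4, 1 and 26 without siZEB1 replicate 1, 2 or 3, while the count of lower genes stayed between 3 (without siZEB1 replicate 3) and 6. Without the replicate 3 of each group, 58 of the 82 were higher and 4 lower, where 21.9% and 23.8% of all 15148 genes then tested were called in these directions, and the median of the 82 was 0.18. With all libraries the count of higher genes was thus below the background, and without these 2 libraries it was above it. In its group, siNC replicate 3 had the highest level of these genes (6.14% of reads), and siZEB1 replicate 3 the lowest (5.48%). Leaving both out therefore raises the fold changes by construction, so the larger count describes that choice and is not evidence of a rise.

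The level of the whole set differed between libraries of the same group. The 82 genes together took 5.46%, 5.63% and 6.14% of the reads in siNC replicates 1 to 3, and 5.99%, 6.25% and 5.48% in siZEB1 replicates 1 to 3. Thus siNC replicate 3 lay between siZEB1 replicates 1 and 2, and siZEB1 replicate 3 between siNC replicates 1 and 2. The group means, 5.74% ± 0.353 and 5.91% ± 0.395 (SD, n = 3 each), differed by less than the spread between replicates. Summed over the 82 genes, the level was 57331 ± 3555 CPM with siNC and 59347 ± 4360 CPM with siZEB1. What set the level of these libraries is not given by the labels and was not tested.

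Both subunits followed this pattern. Relative to each gene's siNC mean, the median log2 level of the large subunit genes was -0.062, -0.028 and 0.099 in the siNC libraries and 0.090, 0.15 and -0.056 in the siZEB1 libraries. For the small subunit genes it was -0.080, -0.028 and 0.10 against 0.11, 0.16 and -0.055. Of the 50 large subunit genes 6 were called as higher and 3 as lower, with a median log2FC of 0.068, and of the 32 small subunit genes 2 and 2, with a median of 0.087. The called shares, 18% and 12.5%, were both under the 40.2% of all genes tested. Without the replicate 3 of each group, 35 large and 23 small subunit genes were higher, with medians of 0.17 and 0.19. Of all genes then tested, 21.9% were higher, but leaving out these libraries raises the values of both subunits by construction. When 1 library was left out, the median ran from 0.024 to 0.12 for the large and from 0.039 to 0.14 for the small subunit, lowest without siZEB1 replicate 2 in both.

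The ratio of the summed reads of large to small subunit genes differed slightly between the groups. Reads of large subunit genes outnumbered those of small subunit genes by a ratio of 1.475, 1.475 and 1.468 in the siNC libraries and 1.451, 1.451 and 1.463 in the siZEB1 libraries. The mean ratio was 1.473 ± 0.0043 with siNC and 1.455 ± 0.0068 with siZEB1 (SD, n = 3 each), and the groups did not overlap, although the gap between the closest libraries was smaller than the range within the siZEB1 group. This ratio is a sum over genes, in which abundant genes weigh most, and is given as a description without a test. The median log2FCs of the large and small subunit genes, 0.068 and 0.087, were close, so the ratio does not describe the typical gene.

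**Figure D2:**
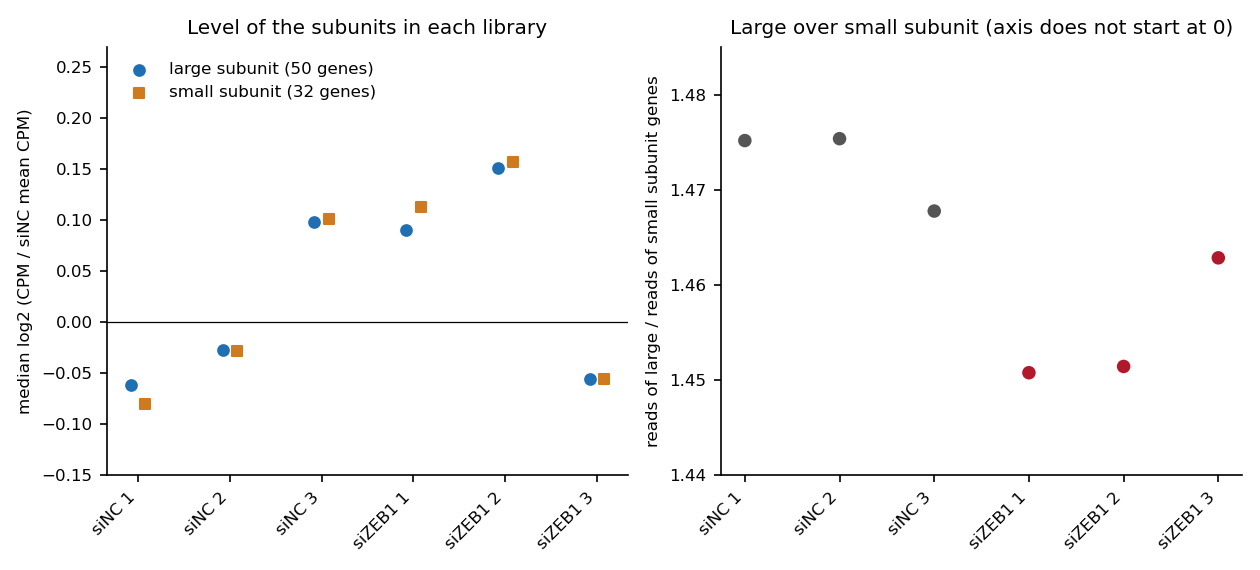
On the left, the median log2 level of the large and small subunit genes in each library, relative to the siNC mean of each gene, and on the right, the ratio of large to small subunit reads on an axis that does not start at 0. On the left, siNC replicate 3 sits with siZEB1 replicates 1 and 2 and siZEB1 replicate 3 with siNC replicates 1 and 2, and on the right the siNC libraries lie at 1.468 to 1.475 and the siZEB1 libraries at 1.451 to 1.463.

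Since the level of the whole set varied between libraries, the make-up of the set was also examined, as the share each gene took of the reads of all 82. On this scale 24 genes were higher and 17 lower in every siZEB1 library than in every siNC library, where 42.8% of all genes tested separated in the same way when scaled to the same sum. In a fit that scaled the libraries to the summed reads of the 82 genes, a choice made after the data had been seen, 5 of the 82 were called as higher and 8 as lower, against 10.7% and 18.3% of all genes. The 5 genes that were lower with all libraries were RPS7, RPL6, RPL39, RPS27 and RPL4, and each was called as lower on this scale too, joined by RPL29, RPL10A and RPL35A.

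RPS7, a small subunit protein needed to mature the small subunit rRNA and one of the ribosomal proteins that bind the p53 regulator MDM2, fell most. Its level was 684, 713 and 720 CPM in the siNC libraries and 430, 452 and 403 CPM in the siZEB1 libraries. Every siZEB1 library lay far below every siNC library, and its level fell by 39.3% (log2FC -0.72 ± 0.055, SE, adjusted p = 2.66e-08). RPS7 (ENSG00000171863, chromosome 2 from 3575205 to 3580920 on the plus strand, GRCh38) shared no exonic bases with another annotated gene, and its call held in all 16 alternatives, with log2FCs of -0.76 to -0.68 when 1 library was left out. Of the reads of all 82 genes it took 1.23% ± 0.052 with siNC and 0.722% ± 0.015 with siZEB1. Without the replicate 3 of each group its log2FC was -0.66.

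Reads of the 8 RPS7 pseudogene rows moved with the gene. They held 2556, 2646 and 2546 reads in the siNC libraries and 1432, 1537 and 1374 in the siZEB1 libraries, 14.9% of all reads given to RPS7 and its pseudogenes. Their ratio of siZEB1 to siNC on the log2 scale was -0.70, beside -0.72 for RPS7 itself. Processed pseudogenes are copies of the mRNA, so reads of either can be assigned to the other, and how the counting treated such reads is not given in the sources used here.

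RPL6, a large subunit protein with no bacterial counterpart, measured 1182, 1171 and 1284 CPM with siNC and 975, 1009 and 911 CPM with siZEB1. The groups did not overlap, and the level fell by 20.4% (log2FC -0.33 ± 0.055, SE, adjusted p = 0.000133). RPL39, a very small protein of the exit tunnel, measured 287, 298 and 321 CPM with siNC and 240, 261 and 222 CPM with siZEB1. It fell by 20.2% (log2FC -0.33 ± 0.066, SE, adjusted p = 0.000804), again with no overlap. The calls of RPL6 and RPL39 held in all 16 alternatives, with adjusted p-values of up to 0.00151 and 0.00711, and without the replicate 3 of each group their log2FCs were -0.24 and -0.22.

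RPS27, a zinc-finger protein of the small subunit, measured 266, 268 and 304 CPM with siNC and 242, 257 and 213 CPM with siZEB1, so the closest libraries were near each other. It was called at a log2FC of -0.24 ± 0.072 (SE, adjusted p = 0.0146), which did not hold without siZEB1 replicate 3 and without the replicate 3 of each group (-0.097, adjusted p = 0.101). RPL4, whose long loop reaches into the narrowest stretch of the tunnel, measured 1864, 1900 and 1938 CPM with siNC and 1720, 1779 and 1645 CPM with siZEB1 (log2FC -0.15 ± 0.048, SE, adjusted p = 0.0193). RPL4 was lower in every siZEB1 library, but its call was lost without siNC replicate 2, siZEB1 replicate 1 or siZEB1 replicate 3, with adjusted p-values between 0.00956 and 0.0943 across the alternatives. RPL29, which also separated by group, narrowly missed the threshold and was not called (-0.16, adjusted p = 0.0506).

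**Figure D3:**
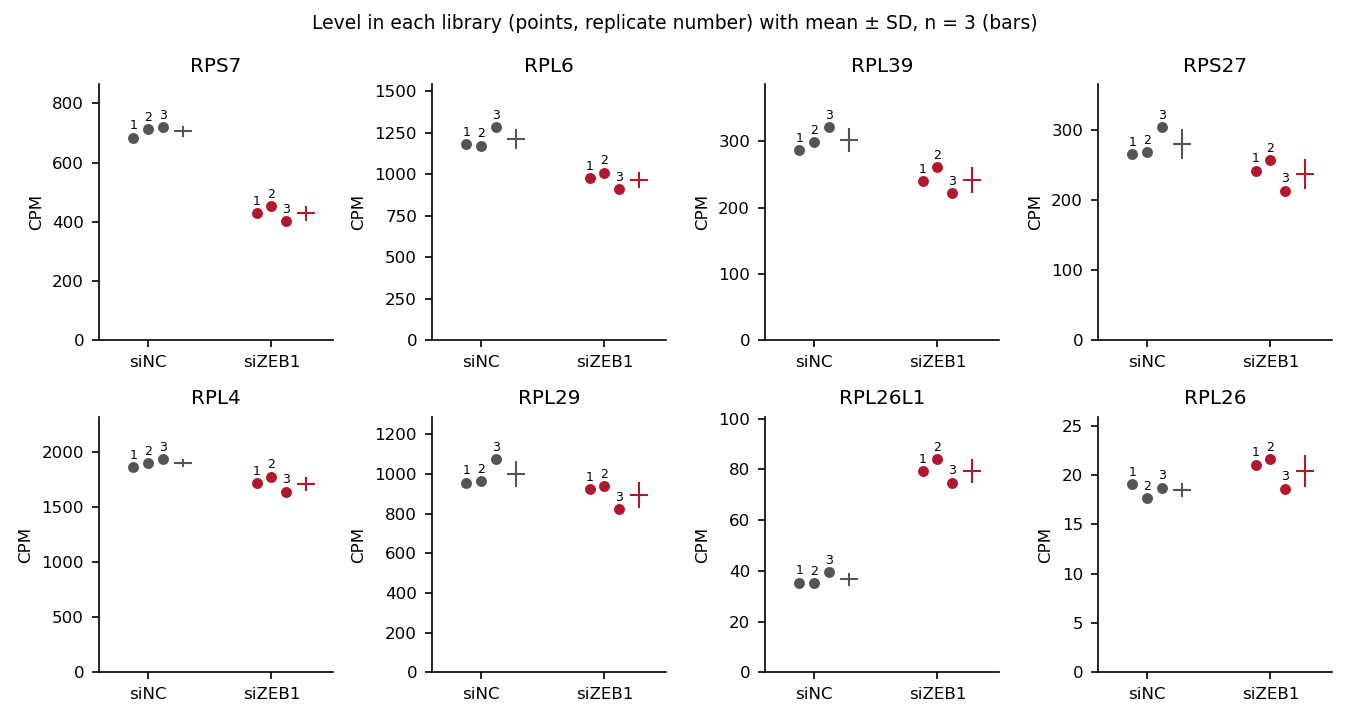
Level in CPM of 8 genes in each library (points, with the replicate number), with the mean and SD of each group (n = 3) beside them, on axes that start at 0. RPS7 lies at 684 to 720 CPM with siNC and 403 to 452 CPM with siZEB1, RPL26L1 at 35.1 to 39.6 and 74.7 to 83.9 CPM, while RPL26 overlaps between the groups.

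RPL26L1, the paralog of the tunnel-exit protein RPL26, was the gene that rose most. It had 751, 787 and 763 reads in the siNC libraries and 1498, 1614 and 1430 in the siZEB1 libraries. Its level rose from 36.7 ± 2.51 to 79.3 ± 4.61 CPM (SD, n = 3 each), or by 116% (log2FC 1.11 ± 0.075, SE, adjusted p = 4.98e-09), and every siZEB1 library was far above every siNC library. The call held in all 16 alternatives, with log2FCs of 1.07 to 1.17 when 1 library was left out and 1.22 without the replicate 3 of each group. RPL26L1 (ENSG00000037241) lies on chromosome 5 from 172958729 to 172969771 on the plus strand (GRCh38), and 4.30% of its exonic bases overlap another annotated gene on the opposite strand.

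The partner RPL26 did not pass the test. It had 405, 396 and 361 reads with siNC and 397, 415 and 356 with siZEB1 (log2FC 0.14 ± 0.089, SE, adjusted p = 0.219), and the CPM of the groups overlapped. The RPL26 count is uncertain, since 14.3% of its exonic bases are shared with another gene on the same strand. That share is of the exons of all its transcripts (2513 bases), while its transcript RPL26-201 has 585 bases. The shared part of this mRNA may thus be larger and was not measured. In addition, 24.4% of the reads of RPL26 and its pseudogenes were assigned to the 7 pseudogene rows. With these reads added to the gene, the RPL26 log2 fold change was 0.25 and RPL26 was called as higher (adjusted p = 0.0248, edgeR). Of the reads of the pair, RPL26L1 held 65.0%, 66.5% and 67.9% in the siNC libraries and 79.1%, 79.5% and 80.1% in the siZEB1 libraries. These shares rest on the uncertain RPL26 count and may be too high. The log2 ratio of RPL26L1 to RPL26 was higher by 0.97 with siZEB1 (exact permutation test, two-sided, p = 0.1, the smallest that 3 against 3 allows, and 0.5 after Benjamini-Hochberg adjustment over 5 pairs).

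None of the other 4 pairs separated by group. RPL22L1, paralog of RPL22, held 23.6% ± 0.562 of its pair with siNC and 24.7% ± 1.05 with siZEB1, a difference of 0.082 in the log2 ratio (exact permutation p = 0.2). RPL7L1, paralog of RPL7, held 32.6% ± 2.19 and 32.9% ± 1.95, and RPS27L, a p53-inducible paralog of RPS27, held 5.92% ± 0.362 and 6.38% ± 0.500 (SD, n = 3 each; exact permutation p = 1 and 0.3). RPL22L1 itself was higher in every siZEB1 library, at 0.21 (adjusted p = 0.065), and RPS27L measured -0.12 (adjusted p = 0.468). RPL3L, the muscle paralog of RPL3, had 17, 19 and 3 reads with siNC and 4, 28 and 18 with siZEB1, too few to place its share of the pair (exact permutation p = 0.5), and RPL3 measured 0.015. RPL10L and RPL39L were not among the gene rows under these symbols.

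**Figure D4:**
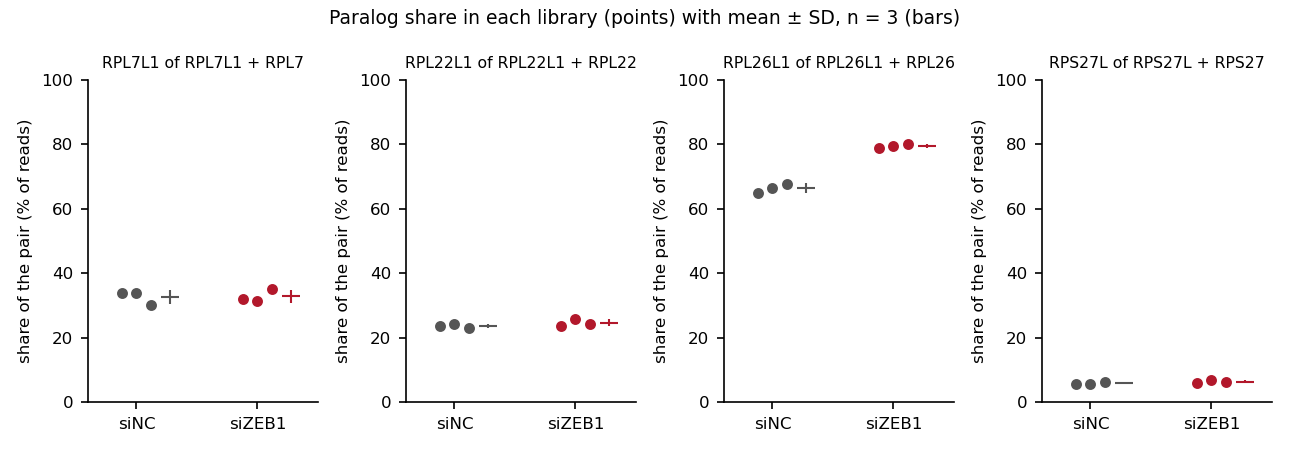
Share of the reads of a paralog pair that went to the paralog in each library (points) with the mean and SD (n = 3), for 4 pairs, leaving out RPL3L with its few reads. RPL26L1 goes from 66.5% to 79.6% of its pair, whose RPL26 count is uncertain, and the other 3 shares overlap between the groups.

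The remaining 7 higher genes each rose by less than 1.2-fold, and none of their calls held in all alternatives. RPLP1, an acidic protein of the stalk that recruits translation factors, measured 674, 759 and 824 CPM with siNC and 913, 977 and 804 CPM with siZEB1 (log2FC 0.26 ± 0.074, SE, adjusted p = 0.0109). RPL13A, known also from the interferon-induced complex that silences inflammatory mRNAs, measured 976, 1079 and 1198 CPM against 1326, 1381 and 1165 CPM, a log2FC of 0.25 ± 0.072 (SE, adjusted p = 0.00961). In both, siZEB1 replicate 3 lay among the siNC libraries, so the groups overlapped. RPL13A also shares 17.3% of its exonic bases with another gene on the same strand.

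RPS27A, made as a fusion with ubiquitin, measured 658, 689 and 712 CPM with siNC and 800.0, 873 and 741 CPM with siZEB1 (log2FC 0.23 ± 0.060, SE, adjusted p = 0.00572), and its groups did not overlap. RPSA, which also serves as a laminin receptor, was at 0.23 (adjusted p = 0.014), RPL37A at 0.18 (0.0383), RPL34 at 0.17 (0.0453) and RPL15 at 0.14 (0.0409), all with adjusted p-values from edgeR's test. Each of these 7 calls was lost without siZEB1 replicate 2, and those of all but RPS27A also without siNC replicate 1. RPSA lost its call without siZEB1 replicate 1 too, and RPL37A, RPL34 and RPL15 without siNC replicate 2 or siZEB1 replicate 1. With no filter on low counts RPL34 and RPL15 were not called, nor was RPL34 with total library size only. On the scale of the reads of the 82 genes, RPLP1, RPL13A, RPS27A and RPSA remained higher (adjusted p = 0.0232, 0.0168, 0.0329 and 0.0291), and RPL37A, RPL34 and RPL15 were not called (0.0911, 0.2 and 0.232). Pseudogene rows named after RPSA held 14.6% of the reads of its family.

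**Figure D5:**
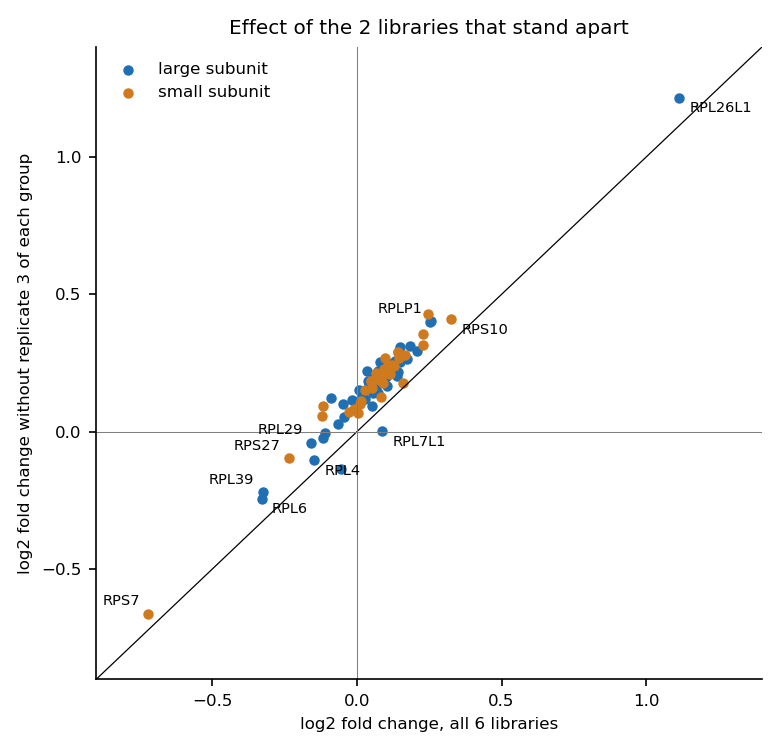
Log2 fold change of 81 genes (RPL3L, with few reads, is left out) with all 6 libraries on the horizontal axis and without the replicate 3 of each group on the vertical axis, with the line of equal values. Most points lie above the line, RPS7 and RPL26L1 stay apart from the rest, and the median goes from 0.072 to 0.18. The libraries left out were the highest of siNC and the lowest of siZEB1 for these genes, which moves points upward by construction.

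The members were also grouped by their position in the ribosome. Of the 4 stalk proteins, which receive the elongation factors, RPLP1 rose, while RPLP0 (0.069), RPLP2 (0.10) and RPL12 (-0.045) were not called. RPL5 and RPL11, which with the 5S rRNA form a particle that can bind MDM2, measured 0.10 (adjusted p = 0.124) and 0.15 (adjusted p = 0.0614), and neither was called by edgeR with all libraries or by DESeq2. RPL5 was called as higher in 2 and RPL11 in 3 of the 16 alternatives, the fit without the replicate 3 of each group among them. Around the tunnel and its exit, RPL39 and RPL4 fell, and the other 6 (RPL17, RPL19, RPL23A, RPL26, RPL31 and RPL35) lay between -0.089 and 0.14 without a call. At the entry and exit of the mRNA channel, RPSA rose, and RPS2 (0.14, adjusted p = 0.091), RPS3 (-0.027), RPS21 (0.12), RPS26 (0.049) and RPS28 (0.24, adjusted p = 0.0616) were not called. RPS2 was called as higher in 4 of the 16 alternatives. RPS28 was called as higher by DESeq2 (adjusted p = 0.0487), with no filter (0.00703) and without siNC replicate 3 (0.00441) or siZEB1 replicate 3 (0.00503). The RPS28 log2 fold change ranged down to 0.14 with pseudogene reads added, and was 0.15 without siNC replicate 1 and 0.14 without siZEB1 replicate 2, none of them called. RPS3A, at 0.0038, was the gene nearest to no change, with 367 ± 17.5 and 368 ± 19.1 CPM.

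Some members could be measured less well than the rest. Fewer than 1000 reads in every library were counted for 9 of the 82, among them RPL17 with 22 to 35 reads and RPS10 with 43 to 60, and these share 32.7% and 39.4% of their exonic bases with other genes on the same strand, read-through genes included. RPS10 measured 0.33 ± 0.19 (SE, adjusted p = 0.192). On the opposite strand, 52.7% of the exonic bases of RPL10 overlap other genes, DNASE1L1 among them, and 21.4% of those of RPS28, and as no strand setting is stated these reads cannot be told apart. RPS28 also had the largest pseudogene share of all families, 73.4% of its family's reads in 1 row, followed by RPS10 with 48.1%. Over all families the pseudogene rows held 2.97% ± 0.053 of the combined reads with siNC and 2.91% ± 0.046 with siZEB1 (SD, n = 3 each), and the median family share was 0.591%.

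The calls were then set beside the start sequences. Of the 47 genes with a TOP start, 6 were higher and 2 lower, with a median log2FC of 0.076, and of the 19 without one at any listed start, 2 were higher and 3 lower, with a median of 0.015. The called shares, 17.0% and 26.3%, were both under the 40.2% of all genes tested. The 3 lower genes without it were RPS7, RPL6 and RPL4, and the 2 lower genes with it RPL39 and RPS27, as the sequences above show. The rule starts at the exact listed base. RPL4, for example, has a run of pyrimidines a few bases further on, so genes counted as without a TOP start may still make TOP mRNAs. The other 16 genes were not in the promoter table.

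ZEB1 is known to bind E-boxes of the form CACCTG, which reads CAGGTG on the other strand. In windows from 250 bases before to 50 bases after each RefSeq start, searched for both forms, 7 of the 66 genes (10.6%) held at least 1, against 24.1% of all genes in the table. They were RPL15, RPL26L1, RPL32, RPLP0, RPS21, RPS24 and RPS29, of which RPL26L1 and RPL15 were called as higher and none as lower. Of all genes tested 19% were higher and 21.2% lower, and 7 genes are too few to set against these shares. The RPL15 call held in 9 of the 16 alternatives. The stretches around the matches of the 2 called genes are shown with the E-box in capitals (GRCh38.p14).
RPL26L1, chr5:172958787-172958816, plus strand: ccaagagggccaCAGGTGggcgcggagcgg
RPL15, chr3:23916361-23916390, plus strand: ctaaaacattcaCACCTGccaaacaggtct
The match of RPL26L1 lay 81 bases before 1 of its 2 starts, and that of RPL15 172 bases before 1 of its starts. A match of 6 letters is a description of the sequence, and binding was not measured here.

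Some ribosomal proteins have symbols outside the naming rule. RPL36AL (0.038), FAU, the precursor of RPS30 (0.22, adjusted p = 0.051), and RACK1 (0.013), a scaffold on the small subunit, were not called by edgeR in the main fit. Of these FAU alone had an unadjusted p under 0.05. FAU was called as higher in 8 of the 16 alternatives, which included DESeq2 and several edgeR fits.

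Genes that share the TOP motif or act on ribosomal protein mRNAs and proteins were examined beside the 82. Of 16 tested translation factors and other proteins with TOP mRNAs, 5 were higher and 4 lower (56.3% called, against 40.2% of all genes tested), with EIF3F, a subunit of initiation factor eIF3, at 0.77 (adjusted p = 8.42e-08) and EEF1B2, an exchange factor for elongation, at -0.36 (adjusted p = 0.000108). The higher count fell to 3 without siNC replicate 2 or 3 or siZEB1 replicate 2 and to 1 without siZEB1 replicate 1, and the lower count to 2 without siNC replicate 1. Of 13 regulators of TOP mRNAs and ribosome production, 7 fell and 1 (EIF4EBP2) rose, and the median was -0.40. In all 61.5% were called, against 40.2% of all genes tested, of which 21.2% were lower. EIF4EBP1, a repressor of cap-dependent initiation, fell from 87.8 ± 9.84 to 53.8 ± 4.12 CPM (-0.71, adjusted p = 4.05e-06), and LARP1 from 603 ± 24.3 to 373 ± 16.5 CPM (-0.69, adjusted p = 4.09e-08). These counts of regulators were the same in every alternative that was run, leaving out each library included.

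Dedicated chaperones and escorts of ribosomal proteins made up the last list. Of 10, 2 were higher and 3 lower, a called share of 50% that is near the 40.2% of all genes tested. TSR2, the chaperone of RPS26, rose from 63.9 ± 3.59 to 83.1 ± 5.50 CPM (0.38, adjusted p = 0.000432), while RPS26 measured 0.049 and was not called. BCCIP, which escorts RPL23, fell from 217 ± 7.85 to 172 ± 5.69 CPM (-0.34, adjusted p = 0.000196), while RPL23 measured 0.028 and was not called. The higher count fell to 1 without siNC replicate 1 or 2 or siZEB1 replicate 1 or 2.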

How the data were processed

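RNA-seq of 6 SW480 cultures (3 siNC, 3 siZEB1) was analysed from 1 table per sample of raw counts per gene, which the authors deposited. Per the labels' processing notes, the submitters used Trimmomatic, HISAT2, SAMtools and featureCounts with hg38. Versions, annotation, strand setting and treatment of reads that map to several places are not given in the sources used here, and the last 2 bear on genes with pseudogenes or overlapping neighbours. Counts were tested with edgeR 4.0.16 (R 4.3.3): filterByExpr with the group (14996 genes kept), TMM factors, a model with the group alone, the two-sided quasi-likelihood test and Benjamini-Hochberg adjustment over all genes kept, called at 0.05. The common biological coefficient of variation was 6.58%. CPM used the same factors. On simulated counts for the same comparison and 14996 genes, 88% of 2-fold changes were recovered and 3.76% of calls were false. A set of genes is described by counts and medians, with no test over the set.

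Members and gene lists were chosen with earlier results of these data known. The genes named were the 6 highest and 6 lowest members, that nearest to 0, paralogs with partners, the stalk, 5S, tunnel and mRNA-channel groups, ribosomal proteins outside the naming rule (1 is not reported here) and the 2 called genes with the largest change of each other list. The other called members, and members named for overlaps or sequence, were named after their values were seen. Alternatives were DESeq2 1.42.0 (Wald test), median-of-ratios factors, total library size, TMM without the members and pseudogenes, no filter, at least 10 counts in every sample, the replicate block, pseudogene reads added to the parent, each library left out, and, chosen after seeing the data, no replicate 3 in either group and scaling to the members' summed reads. Coordinates and overlaps are from GENCODE 29 (31059 of 32029 rows matched), starts and promoters from RefSeq.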

Additional observations from a re-analysis of the deposited data

How the results depend on the processing

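The calls of RPS7, RPL6, RPL39 and RPL26L1, the 2 genes past the study's threshold and the counts of regulators held in every alternative run. Replicate numbers were given to both groups, but deviations of same-numbered samples from their group means correlated at -0.33, -0.34 and -0.66 over 9030 genes, so the samples share only a number. With the replicate block, 5 members were higher (3 of the large subunit), the TOP factors had 2 higher and 2 lower and the chaperones 1 higher. The calls of RPL4, RPL15, RPL34 and RPL37A were also lost, and no other count moved by over 1.5 times under the block.

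Without the replicate 3 of each group, 58 members were higher (35 large, 23 small), 1 small subunit member lower and 3 of the ribosomal proteins outside the naming rule and 7 TOP factors higher, the medians were 0.18 for all members and 0.17 for the large subunit, and the sign changed for RPS27L (0.092), RPL12 (0.055), RPL17 (0.12), RPL19 (0.12), RPL23A (0.10) and RPS3 (0.072), while RPL31 was at 0.16 and RACK1 at 0.13. Scaled to the summed reads of the members, 1601 genes were higher in all, 5 members were higher (3 large) and 8 lower (6 large), 2 TOP factors and 1 chaperone were higher, and the sign changed for RPS3A (-0.047), RPL3 (-0.034), RPS26 (-0.0011), RPL36AL (-0.014) and RACK1 (-0.038). At an adjusted p under 0.01, 3 members were higher and 3 lower. Small subunit members called higher were 4 with median-of-ratios size factors and 5 with no filter. Of the proteins outside the rule, 1 was higher with median-of-ratios size factors, with TMM factors set without the members and pseudogenes, with no filter, with at least 10 counts in every sample and with DESeq2. The RPS3A log2 fold change was -0.0047 with total library size only and -0.00090 with no filter, and RPL23A was at 0.12 with pseudogene reads added. Leaving out replicate 3 of each group and scaling to the members' sum were chosen after seeing the data, and the former raises the members' fold changes by construction. With pseudogene reads added RPL26 was called as higher, and with no filter or total library size only RPL34 lost its call, as did RPL15 with no filter. The cause of these moves was not tested.

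When 1 library was left out, the counts of members called higher ran from 1 to 26 (large 1 to 16, small 0 to 12) and lower from 3 to 6 (large 2 to 4, small 1 to 2), TOP factors from 1 to 4 higher and 2 to 4 lower, chaperones from 1 to 3 higher and proteins outside the rule from 0 to 1 higher, and the medians from 0.027 to 0.13 for all members and 0.024 to 0.12 for the large and 0.039 to 0.14 for the small subunit. Log2 fold changes that changed sign ran from -0.087 to 0.96 for RPL3L, -0.037 to 0.047 for RPS3A, -0.029 to 0.069 for RPL3, -0.25 to -0.00069 (no change of sign) for RPS27L, -0.079 to 0.0085 for RPL12, -0.29 to 0.087 for RPL17, -0.075 to 0.050 for RPL19, -0.11 to 0.042 for RPL23A, -0.0061 to 0.12 for RPL31, -0.068 to 0.028 for RPS3, -0.0080 to 0.12 for RPS26 and -0.034 to 0.084 for RACK1. The pair differences ran from -0.38 to 1.31 for RPL3L over RPL3 and -0.066 to 0.067 for RPL7L1 over RPL7.

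Of the 1.2-fold changes simulated in genes drawn at random from all genes tested, 26% were recovered with 3 cultures per group. This share is not that of the members, most of which had many reads. RPL15 (0.14) and RPL4 (-0.15) were called at less than 1.2-fold, and how often such changes of members would be missed was not simulated.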

Other observations

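The 7-mer GAACACA had been picked out by an earlier scan of 3′UTRs against the fold changes of these data, and it was looked for in the transcripts of the 82 genes (1 GENCODE 29 transcript per gene). It occurred in the 3′UTR of 2 genes (2.44%), RPL14 and RPS27L, against 10.4% of 16256 coding genes, and neither was called (0.054 and -0.12). In the coding region it occurred in 7 genes (8.54%), against 12.7% of all. Of these 7, RPS7, RPL6 and RPL4 are among the 5 lower genes, and RPL11 (0.15), RPL19 (-0.017), RPL21 (-0.066) and RPS3 (-0.027) were not called. Of all genes tested 40.2% were called, and 21.2% were called as lower. These 7 genes are few and the 7-mer was picked on these data, so nothing about the members is read from their calls. The coding stretches of the 3 lower genes are shown on the mRNA strand with the 7-mer in capitals (GRCh38).
RPS7, chr2:3580231-3580260, plus strand: aaagcacagcagaacaatgtgGAACACAag
RPL6, chr12:112405986-112406015, minus strand: tcctctacgaaGAACACAccagaaatttgt
RPL4, chr15:66502670-66502699, minus strand: catcgtagagtGAACACAacccaaaaacga
The 7-mer begins at coding position 499 of 585 in RPS7, 563 of 867 in RPL6 and 345 of 1284 in RPL4, counted from 1. Whether it has a part in these values was not tested.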
